A study of Mus musculus with 2 samples.

Results

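The Hox genes of the 4 mouse clusters were followed in the adult ovary by sequencing of polyadenylated RNA. The members are the protein-coding genes whose symbol is Hoxa, Hoxb, Hoxc or Hoxd followed only by a number. They were 39 of 43346 mouse gene identifiers, or of 21474 protein-coding genes. The tissue was ovary of the mouse strain C57BL/6J, taken from females at 8 weeks of age that the labels call littermates. It was measured in 2 libraries, replicate 2 and replicate 1, which form a single group with no treatment, mutant or other tissue beside it. The labels call them biological replicates, yet both cite the same donor record, so part of the spread between them may be technical and every p-value below speaks of these 2 libraries only. Gene counts, which are estimated read pairs, summed to 34930860 in replicate 2 and 41124061 in replicate 1.

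Hox proteins are transcription factors that bind DNA through a homeodomain, a conserved fold encoded by the homeobox. Their genes lie in 4 clusters that arose by duplication, so that genes at matching places in different clusters form paralog groups, numbered from 1 to 13. In the embryo, low-numbered genes act at the level of the hindbrain and neck and high-numbered genes towards the tail, in the limbs and in the reproductive ducts. In the female tract of the mouse, Hoxa9 is known for the oviduct, Hoxa10 for the uterus, Hoxa11 for the lower uterus and cervix, and Hoxa13 for the cervix and upper vagina.

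The homeobox is the stretch all members share. Those of Hoxc9 and Hoxb9, a pair of paralog group 9 that carried unequal levels of RNA, are shown with that of Hoxd13, a posterior gene with next to no reads. Each is the reference sequence of GRCm38 on the strand of the gene, 5′ to 3′, from the GENCODE transcripts. Capitals mark bases that differ from Hoxc9, whose own sequence is therefore in lower case throughout.
Hoxc9, chr15:102983930-102984109, plus strand: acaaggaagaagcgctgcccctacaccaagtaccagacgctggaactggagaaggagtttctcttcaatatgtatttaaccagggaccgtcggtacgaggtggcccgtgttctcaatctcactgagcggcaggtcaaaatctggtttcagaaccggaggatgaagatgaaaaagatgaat
Hoxb9, chr11:96274659-96274838, plus strand: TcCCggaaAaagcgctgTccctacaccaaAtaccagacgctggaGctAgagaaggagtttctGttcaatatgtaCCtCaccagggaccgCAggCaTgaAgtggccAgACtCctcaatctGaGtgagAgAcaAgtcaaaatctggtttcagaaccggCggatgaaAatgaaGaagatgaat
Hoxd13, chr2:74669930-74670109, plus strand: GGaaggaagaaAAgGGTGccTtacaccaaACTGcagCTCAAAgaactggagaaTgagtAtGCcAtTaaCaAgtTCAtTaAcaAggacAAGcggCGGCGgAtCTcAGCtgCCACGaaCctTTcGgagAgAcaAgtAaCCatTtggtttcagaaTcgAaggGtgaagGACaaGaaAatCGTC

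Within the pair of paralog group 9 the homeoboxes differed at many more bases than residues. Of 180 bases, 29 differed from Hoxc9 in Hoxb9, with 4 of 60 residues changed. Hoxd13 differed from Hoxc9 at 75 bases and 28 residues. A homeobox of this length was found in 39 of 39 members and lay within the last exon in each. Over all members, the median identity of the homeodomain residues was 93.3% between the 42 pairs of the same paralog group, 62.5% between the 172 pairs of the same cluster and 60% between the other 527 pairs.

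Such likeness raises the question whether reads can be told apart between members. Along whole transcripts, 2 of 741 pairs shared an identical stretch as long as a read of 76 bases, and both pairs lie within a cluster. Hoxd3 and Hoxd4 shared 388 bases, and Hoxc5 and Hoxc10 shared 168 bases. The longest stretch shared between clusters was 52 bases, between Hoxa6 and Hoxb4. In the authors' estimates, the posterior standard deviation of the count was 0 in both libraries for 33 of 39 members. The exceptions were Hoxa2, Hoxa3, Hoxa9, Hoxd3, Hoxd4 and Hoxd11, with values of at most 2.01 counts in either library but for Hoxd3, at 34.4 counts in replicate 2 and 41.5 in replicate 1, and Hoxd4, at 25.58 and 25.02 in the same order.

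Most Hox genes were present in the ovary. A transcripts-per-million value (TPM, a level per transcript length) of at least 1 in both libraries was taken as detected, and 29 of 39 Hox genes reached it (74.4%), beside 13312 of 21474 protein-coding genes (62.0%). Their median level was 7.70 TPM in replicate 2 and 7.01 TPM in replicate 1, beside medians of 4.30 and 4.43 TPM over protein-coding genes. Among detected genes only, the Hox genes were the lower set, with medians of 9.66 TPM in replicate 2 and 11.4 TPM in replicate 1, against 17.5 and 17.7 TPM for protein-coding genes. Of the Hox genes 15 (38.5%) had a mean of at least 10 TPM, a share close to the 39.5% of protein-coding genes. All Hox genes together made up 0.0676% of the gene counts in replicate 2 and 0.0552% in replicate 1. The order of the 29 detected members was much alike in the 2 libraries (Pearson's r of log2 TPM 0.968 and Spearman's rho 0.963, across genes, which are not independent replicates).

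The RNA came from a mixed tissue, in which fewer cells of a type and less RNA per cell cannot be told apart. Markers of granulosa cells (7 of 7), theca and interstitial cells (6 of 6), oocytes (7 of 7) and surface epithelium (6 of 6) were detected, as the label of ovary asks. Markers of oviduct epithelium were detected too (8 of 8), with a summed level of 1017 TPM in replicate 2 and 1145 TPM in replicate 1. These include Foxj1, a factor of ciliated cells, at 137 TPM in replicate 2 and 112 TPM in replicate 1. Adipocyte markers were detected (5 of 5), with summed levels of 3171 and 2415 TPM in the same order. Of 4 neuron markers only Tubb3, a tubulin not confined to neurons, was detected, and 1 of the 4 had 0 counts in both libraries. What part these cell types have in the Hox levels was not tested.

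**Figure D1:**
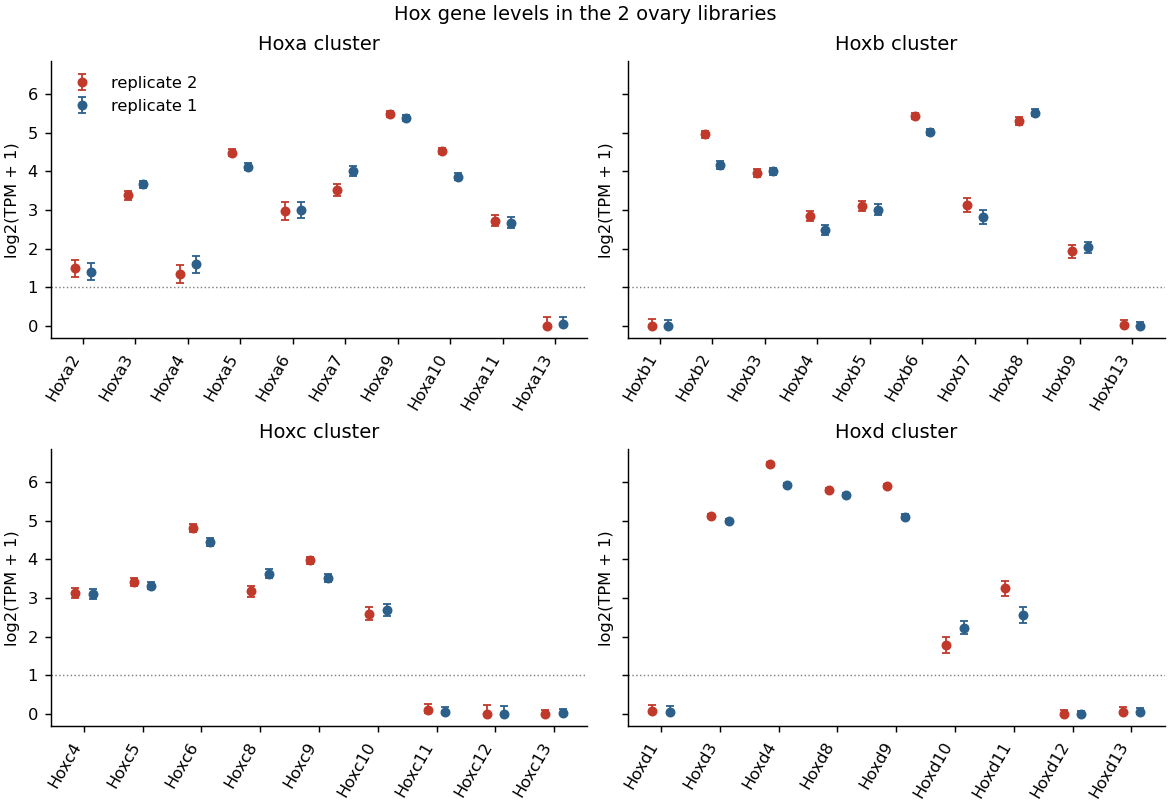
Levels of Hox genes, 1 panel per cluster, with genes ordered by paralog number along the x axis and log2(TPM + 1) on the y axis. Red points are replicate 2 and blue points replicate 1, bars are 95% exact Poisson intervals that cover counting error only, and the dotted line is a TPM of 1. Hoxd4 stands highest, and the genes of paralog groups 12 and 13 lie below the dotted line in both libraries.

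The genes of paralog groups 1 to 4, whose embryonic domains reach furthest towards the head, held the highest Hox gene but also some of the lowest. Of these 12 genes 9 were detected, and they carried 32.8% of the summed Hox TPM in replicate 2 and 30.8% in replicate 1. Hoxd4, which takes part in patterning the neck vertebrae, had 88.1 TPM in replicate 2 (95% exact Poisson interval 84.9 to 91.5) and 60.1 TPM in replicate 1 (57.7 to 62.7). It ranked highest among Hox genes in both libraries, and its mean of 74.1 ± 19.8 TPM (SD, n = 2) stood at the 88.9th percentile of protein-coding genes. Its neighbour Hoxd3, another gene of the neck vertebrae, had 33.9 TPM in replicate 2 and 31.1 TPM in replicate 1.

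Within the Hoxb cluster, Hoxb2, a gene of hindbrain segments and the facial nerve, had 30.1 TPM in replicate 2 and 17.0 TPM in replicate 1. Hoxb3 stood at 14.6 TPM in replicate 2 and 15.1 TPM in replicate 1. Hoxb4, known for its effect on blood stem cells when overexpressed, had 6.22 TPM in replicate 2 and 4.60 TPM in replicate 1. The Hoxb level was thus lower at each step from group 2 to group 4, apart from the overlapping counting intervals of Hoxb2 and Hoxb3 in replicate 1, whereas the Hoxd level was higher in group 4 than in group 3. In the Hoxa cluster, Hoxa3, needed for the thymus and parathyroid, had 9.38 TPM in replicate 2 and 11.7 TPM in replicate 1. Hoxc4 had 7.77 TPM in replicate 2 and 7.62 TPM in replicate 1, so the libraries agreed for it within the counting interval of either. The lowest detected members were also here: Hoxa4 and Hoxa2, a gene of the branchial arches, had between 1.52 and 2.01 TPM in the 2 libraries.

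Within paralog group 4, then, the mean level ran from 1.77 TPM for Hoxa4 to 74.1 TPM for Hoxd4, and in group 2 from 1.72 TPM for Hoxa2 to 23.5 TPM for Hoxb2. Group 3 was more even, between 10.5 TPM for Hoxa3 and 32.5 TPM for Hoxd3.

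Paralog groups 5 to 8, which in the embryo pattern the thorax, were detected without exception. All 11 genes passed, with a median of the mean levels of 12.8 TPM, and carried 39.5% of the summed Hox TPM in replicate 2 and 44.6% in replicate 1. Hoxd8 had 54.6 TPM in replicate 2 and 49.6 TPM in replicate 1. Hoxb8, known in mice for grooming behaviour, had 38.4 TPM in replicate 2 and 44.8 TPM in replicate 1. Both were among the 6 highest Hox genes, while the third member of their group, Hoxc8, a gene of thoracic patterning and forelimb motor neurons, had 8.02 TPM in replicate 2 and 11.4 TPM in replicate 1.

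Paralog group 6 again spread widely over its clusters. Hoxb6 had 42.1 TPM in replicate 2 and 31.5 TPM in replicate 1. Hoxc6, the highest gene of its cluster, had 27.1 TPM in replicate 2 and 20.99 TPM in replicate 1. Hoxa6 had 6.87 TPM in replicate 2 and 7.01 TPM in replicate 1, the lowest of the 3 in each library. In paralog group 5, Hoxa5, needed for normal lungs and airways, had 21.3 TPM in replicate 2 and 16.4 TPM in replicate 1. Hoxc5 stood at 9.66 TPM in replicate 2 and 8.99 TPM in replicate 1. Hoxb5 had 7.59 TPM in replicate 2 and 7.06 TPM in replicate 1, so the order Hoxa5, Hoxc5, Hoxb5 held in both libraries, with no overlap between the counting intervals of neighbours. In paralog group 7, Hoxa7 had 10.4 TPM in replicate 2 and 15.1 TPM in replicate 1. Hoxb7 had 7.70 TPM in replicate 2 and 6.01 TPM in replicate 1, below Hoxa7 in each.

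In paralog groups 9 to 13, the posterior genes, presence ended sharply with group number. Of 16 genes 9 were detected, and they carried 27.7% of the summed Hox TPM in replicate 2 and 24.6% in replicate 1. Paralog group 9 alone held 20.3% in replicate 2 and 17.9% in replicate 1. Hoxd9 had 58.9 TPM in replicate 2 and 33.6 TPM in replicate 1. Hoxa9, the oviduct gene of the tract series, had 43.8 TPM in replicate 2 and 40.6 TPM in replicate 1, so Hoxd9 was above Hoxa9 in replicate 2 and below it in replicate 1. Hoxc9, a gene of thoracic motor neurons whose homeobox is shown above, had 14.7 TPM in replicate 2 and 10.5 TPM in replicate 1. Hoxb9 had 2.82 TPM in replicate 2 and 3.08 TPM in replicate 1, the lowest of the group in both.

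Beyond group 9 the levels fell off along the tract series. Hoxa10, the uterine gene, had 22.1 TPM in replicate 2 and 13.6 TPM in replicate 1. Hoxa11, the gene of lower uterus and cervix, had 5.58 TPM in replicate 2 and 5.38 TPM in replicate 1. Hoxa13, the gene of cervix and upper vagina, had 0 counts in replicate 2 and 1 count in replicate 1. The order Hoxa9, Hoxa10, Hoxa11, Hoxa13 was therefore the same in each library, and no counting intervals of neighbours in it overlapped. Those intervals cover counting error only, and the level of Hoxa9 also depends on how reads were shared between its transcripts. In replicate 2, Hoxa9-202, with 851 bases, took 472 counts and 29.75 TPM. Hoxa9-201, with 3226 bases, took 659 counts and 8.87 TPM. Whether Hoxa9 stays above Hoxa10 under another sharing was not tested. Hoxd11, which acts with Hoxa11 in the kidney and forearm, had 8.52 TPM in replicate 2 and 4.92 TPM in replicate 1. Hoxc10 had 5.06 TPM in replicate 2 and 5.47 TPM in replicate 1. Hoxd10, known for lumbar motor neurons, had 2.45 TPM in replicate 2 and 3.71 TPM in replicate 1.

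**Figure D2:**
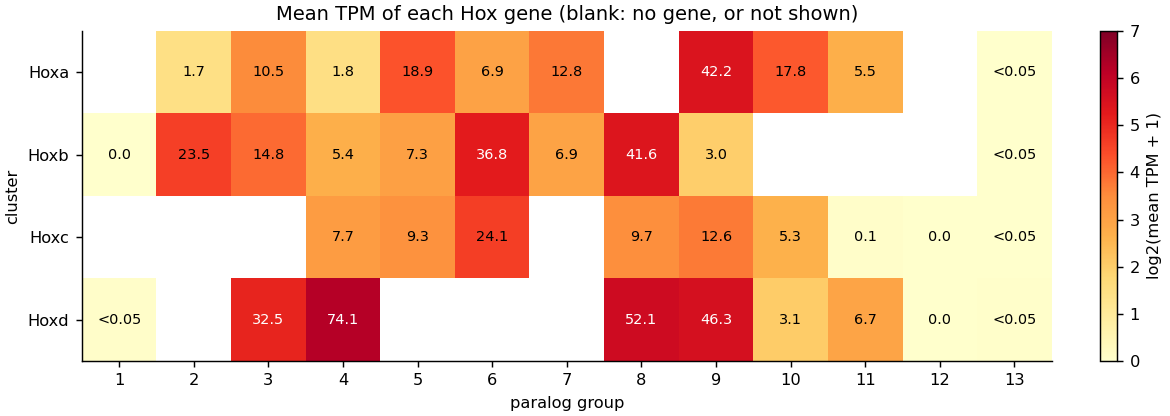
Mean TPM of each Hox gene over the 2 libraries, with clusters down the y axis and paralog groups along the x axis. Colour gives log2(mean TPM + 1), numbers give the mean TPM, and blank cells have no gene or are not shown. Columns 12 and 13 are below 1 TPM in every cluster that has a gene there, and the darkest cell is Hoxd4 at 74.1 TPM.

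Of the 10 members that missed the threshold, 9 had at most 3 counts in either library: Hoxa13, Hoxb1, Hoxb13, Hoxc11, Hoxc12, Hoxc13, Hoxd1, Hoxd12 and Hoxd13. Hoxb1, Hoxc12 and Hoxd12 had 0 counts in both libraries. A count of 0 allows up to 3 counts, which for Hoxb1 is 0.0994 TPM in replicate 2 and 0.0842 TPM in replicate 1, so lower levels were not detectable at this depth. Paralog groups 12 and 13 had no detected gene, and those of group 13 include Hoxd13, the digit gene, Hoxb13, the prostate gene, and Hoxc13, the hair gene. The detected members nearest to the threshold were Hoxa4, at 1.52 TPM in replicate 2 and 2.01 TPM in replicate 1, and Hoxa2, at 1.80 and 1.63 TPM in the same order. No Hox gene had a TPM between 0.5 and 1 in either library.

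By cluster, Hoxd carried the largest share of Hox RNA. Its 9 genes, 6 of them detected, held 41.7% of the summed Hox TPM in replicate 2 and 37.3% in replicate 1. Hoxb held 25.3% in replicate 2 and 26.3% in replicate 1, with 8 of 10 genes detected. Hoxa held 20.8% and 23.2% in the same order, with 9 of 11 genes detected, and Hoxc 12.2% and 13.2%, with 6 of 9. The order Hoxd, Hoxb, Hoxa, Hoxc was the same in both libraries. In counts, which also grow with transcript length, Hoxa held 20.5% in replicate 2 and 22.6% in replicate 1, and Hoxb 21.2% and 20.7% in the same order, so their order by TPM turned round in replicate 1 only. The 6 highest genes by mean TPM, Hoxd4, Hoxd8, Hoxd9, Hoxa9, Hoxb8 and Hoxb6, together made up 55.1% of Hox TPM in replicate 2 and 52.99% in replicate 1. In counts Hoxd3 stood above Hoxb8, with 2288 against 736 in replicate 2 and 2410 against 846 in replicate 1.

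The lead of Hoxd rested on 4 of its genes. Hoxd3, Hoxd4, Hoxd8 and Hoxd9 each had a mean above 30 TPM, while Hoxd1, Hoxd12 and Hoxd13 were not detected. On GRCm38 the Hoxd genes span chromosome 2 from 74668310 to 74765142. The Hoxb genes span chromosome 11 from 96194316 to 96368256, and the Hoxc genes chromosome 15 from 102921103 to 103036852. Over all members, undetected ones included, the levels differed less between close relatives than between other members. The median difference in log2(mean TPM + 1) was 1.15 between the 42 pairs of the same paralog group and 1.30 between the 35 pairs adjacent in a cluster. It was 2.61 between the 137 pairs of a cluster that are not adjacent and 2.12 between the 527 pairs that share neither. Pairs share genes, so these medians are a description with no test. Undetected relatives, such as the genes of paralog groups 12 and 13, lie together near 0 TPM, so their pairs enter as small differences. Undetected genes also form pairs with detected ones, and how far they move each median was not tested. Pairs of detected members were not compared apart, so the medians do not show that detected relatives are alike.

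At the level of transcripts, the leading form of a Hox gene did not change between libraries. Members were read where the annotation gives 2 or more transcripts and the mean count reached 100, which left 21. The transcript with the largest percent of the gene's TPM was the same in both libraries for 21 of 21, and each was protein-coding. It held over 90% in both libraries for 11 genes. In 4 genes it stayed under 70% in both: Hoxa7, Hoxa9, Hoxb6 and Hoxd8. Hoxa7-203, with 643 bases, held 42.0% of the TPM of Hoxa7 in replicate 2 and 52.0% in replicate 1. A Hoxa7 transcript annotated as a target of nonsense-mediated decay was level with it in replicate 2, at 41.98% of the TPM, and held 38.6% in replicate 1. It took 69.8% of the counts of Hoxa7 in replicate 2 and 70.1% in replicate 1. Hoxa9-202, with 851 bases, held 67.9% of that of Hoxa9 in replicate 2 and 65.7% in replicate 1. Hoxb6-201 held 50.5% of that of Hoxb6 in replicate 2 and 58.8% in replicate 1, and the other annotated form held the rest. In Hoxa7, Hoxa9 and Hoxb6 another transcript led by counts in both libraries, and for these the level in TPM depends on how reads were shared out between forms of unequal length. Hoxb8 has a short leading form as well, Hoxb8-202 with 664 bases, at 76.5% in replicate 2 and 85.1% in replicate 1. It took 45.0% of the counts of Hoxb8 in replicate 2 and 58.2% in replicate 1. The level of Hoxb8 in TPM therefore depends on this sharing too. The largest shift between libraries was 12.0 percentage points, for Hoxc4-202, at 73.4% in replicate 2 and 85.4% in replicate 1.

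**Figure D3:**
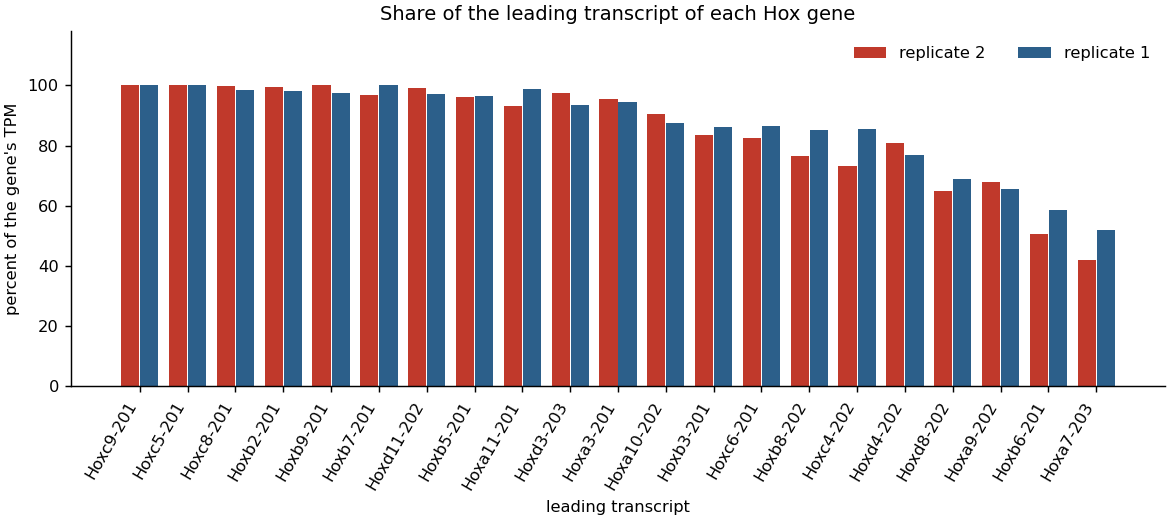
Percent of the gene's TPM held by the leading transcript, on the y axis from 0, for the 21 Hox genes whose transcripts were compared. Red bars are replicate 2 and blue bars replicate 1. Hoxb6-201 and Hoxa7-203 stand lowest, and no leading transcript differed by more than 12.0 percentage points between libraries.

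The design allows a comparison of replicate 2 with replicate 1, which measures how far the Hox levels differed between libraries. Counts were scaled by TMM and compared by a two-sided exact binomial test with Benjamini-Hochberg adjustment over the 15939 genes whose mean count reached 20, of which 30 are Hox genes. Of the 30, 13 (43.3%) were higher in replicate 2 at an adjusted p below 0.05, beside a background of 29.1% of all genes tested, and 4 (13.3%) were lower, beside 27% of all genes. No Hox gene differed by over 2-fold in either direction, while 2.28% of all genes were over 2-fold higher and 1.71% over 2-fold lower. The median log2 ratio of the Hox genes was 0.16, against -0.0056 for all genes, and the median of its absolute value was 0.30, against 0.23.

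The 13 higher genes came from each cluster and from low and high paralog groups. Hoxd9 had the largest log2 ratio, 0.86 (counting SE 0.043, adjusted p 3.58e-90 by the exact binomial test). Hoxb2 had a log2 ratio of 0.86 (counting SE 0.070), Hoxd11 of 0.80 (0.16) and Hoxa10 of 0.78 (0.064). Hoxd4 followed at 0.60 (95% interval 0.52 to 0.68). The other 8 were Hoxc9, Hoxb6, Hoxb4, Hoxa5, Hoxc6, Hoxb7, Hoxd3 and Hoxd8, with log2 ratios between 0.54 for Hoxc9 and 0.22 for Hoxd8. By cluster, 5 of 6 genes tested were higher in Hoxd, 4 of 8 in Hoxb, 2 of 6 in Hoxc and 2 of 10 in Hoxa. The share over all genes tested was 29.1%. Of the Hoxd genes, Hoxd3 and Hoxd8 had ratios of the other sign under the spike-in scaling described below.

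The 4 lower genes were Hoxd10, Hoxc8, Hoxa7 and Hoxa3. Hoxd10 had a log2 ratio of -0.54 (counting SE 0.18) on 97 counts in replicate 2 and 174 in replicate 1. Hoxc8 had a log2 ratio of -0.46, Hoxa7 of -0.36 and Hoxa3 of -0.26. Next-door genes of the Hoxd cluster thus moved apart, with Hoxd10 lower in replicate 2 and Hoxd9 and Hoxd11 on either side of it higher. The remaining 13 did not pass, among them Hoxa9, at 0.12 (95% interval 0.01 to 0.22, adjusted p 0.0527 by the exact binomial test). Hoxb8 had a log2 ratio of 0.10 in scaled counts although its TPM was lower in replicate 2, with -0.22 on the log2(TPM + 1) scale.

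These directions hold relative to the bulk of genes. The ERCC spike-ins, RNAs of known amount, made up 0.986% of the counts in replicate 2 and 0.764% in replicate 1. Scaled by their total, every log2 ratio shifts by -0.43, so 5 Hox genes (16.7%) were higher and 16 (53.3%) lower, beside 7.16% and 71.7% of all genes. The 5 that were higher under both scalings were Hoxd9, Hoxb2, Hoxd11, Hoxa10 and Hoxd4.

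Markers of several cell types moved between the same libraries. All 6 surface epithelium markers were higher in replicate 2, with a summed level of 905 TPM in replicate 2 and 674 TPM in replicate 1 and a median log2 ratio of 0.48. All 5 red cell markers were higher, with sums of 2254 and 1085 TPM in the same order. Of the oviduct epithelium markers 5 of 8 were lower in replicate 2 and 1 higher, and of the oocyte markers 5 of 7 were lower. Granulosa cell markers were 3 higher and 3 lower of 7, and theca and interstitial markers 2 and 4 of 6. Stroma markers were 2 and 4 of 7 in the same order, and smooth muscle markers 3 and 1 of 6. Adipocyte markers were 4 and 1 of 5, and macrophage markers 0 and 3 of 6. Over all genes tested, 29.1% were higher and 27% lower. The part of these shifts in the Hox ratios was not tested.

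**Figure D4:**
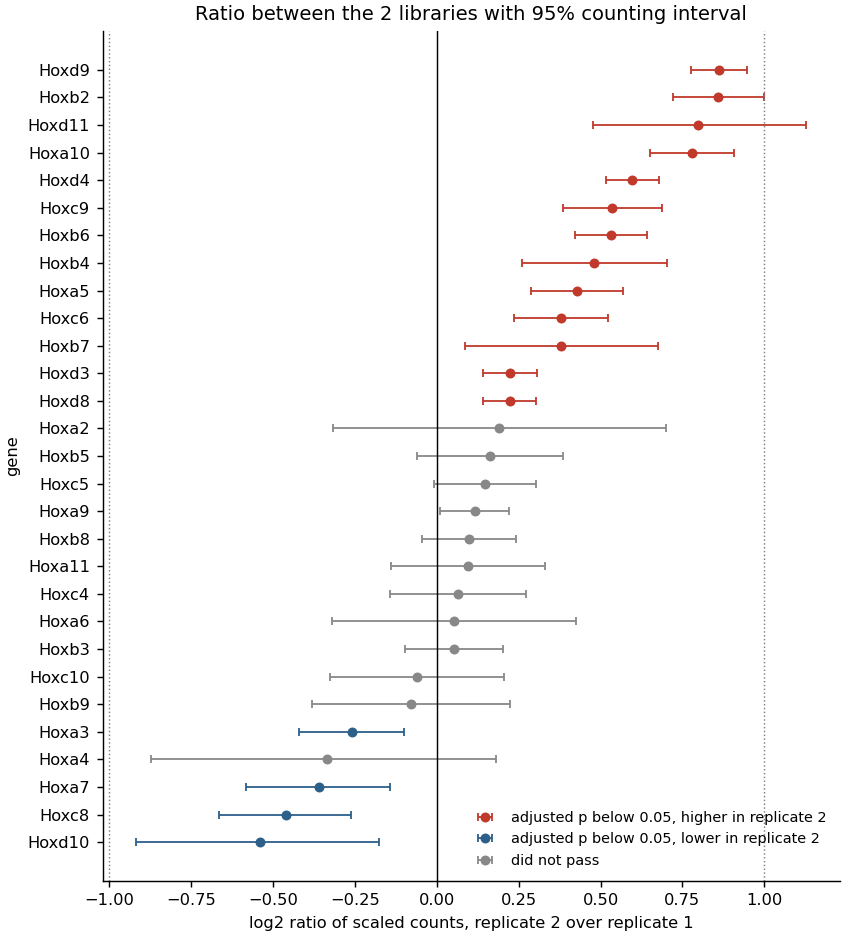
Log2 ratio of scaled counts, replicate 2 over replicate 1, on the x axis for Hox genes tested, with 95% counting intervals. Red marks the 13 genes higher and blue the 4 genes lower in replicate 2 at an adjusted p below 0.05 by the exact binomial test, grey the rest, and dotted lines a 2-fold difference. All points drawn lie between the dotted lines, the outermost at 0.86 for Hoxd9.

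Hox proteins bind DNA together with TALE homeodomain partners of the Pbx, Meis and Pknox families, and all 9 of these genes were detected. Pbx2 had 85.5 TPM in replicate 2 and 67.9 TPM in replicate 1. Meis3 had 54.3 TPM in replicate 2 and 50.3 TPM in replicate 1, the highest of the Meis genes. The lowest by mean TPM was Pbx4, known from the testis, with 11.1 TPM in replicate 2 and 2.95 TPM in replicate 1, on 102 and 61 counts, and in replicate 2 Pbx3 was lower, at 10.2 TPM. Pbx4 was the cofactor that passed 2-fold in scaled counts, at a log2 ratio of 1.03. Of the 9 cofactors 3 were higher in replicate 2 and 3 lower. The background over all genes tested was 29.1% higher and 27% lower, for this list and for each gene list below.

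Chromatin regulators that keep Hox genes silent or active were detected throughout. All 17 Polycomb group genes, whose products repress Hox clusters, passed, with Cbx6 at 170 TPM in replicate 2 and 161 TPM in replicate 1, Ring1 at 183 and 124 TPM, and Phc2 at 129 and 124 TPM in the same order. Of these genes 6 were higher and 5 lower in replicate 2. Within this list Suz12 and Ezh2, of the complex that writes the repressive histone mark H3K27me3, were among the lowest. By TPM the complex was not low throughout, as its member Eed had 33.0 TPM in replicate 2 and 12.3 TPM in replicate 1. In counts Eed and Suz12 were closer, at 403 and 312 in replicate 2 and 309 and 314 in replicate 1. The length assigned in replicate 1 was 1075 bases for Eed and 4303 for Suz12, so their contrast in TPM depends on those lengths. Suz12 had 3.10 TPM in replicate 2 and 2.61 TPM in replicate 1. Ezh2 had 4.41 TPM in replicate 2 and 6.48 TPM in replicate 1, whereas its relative Ezh1 had 32.2 and 34.7 TPM in the same order. All 9 trithorax group and demethylase genes passed as well, led by Men1 at 84.8 TPM in replicate 2 and 102 TPM in replicate 1. Of these, 2 were higher and 5 lower in replicate 2.

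Among retinoid receptors, through which retinoic acid acts on Hox genes in the embryo, 4 of 6 were detected. Rxrb had 104 TPM in replicate 2 and 76.2 TPM in replicate 1, while Rarb and Rxrg missed the threshold. In all, 3 of the 6 were higher in replicate 2 and 1 was lower. The genes that pattern the reproductive tract beside Hox genes were detected in 9 of 10 cases, Lhx1 being the exception. Wnt5a had 72.1 TPM in replicate 2 and 46.2 TPM in replicate 1, Wnt4 had 47.1 and 53.1 TPM, and Emx2 had 47.2 and 30.6 TPM in the same order. Of this list 2 were higher in replicate 2, namely Wnt5a and Emx2, and 2 lower, namely Wnt4 and Pax8. None of the 6 ParaHox genes, the sister group that includes Cdx2 and Pdx1, was detected, with at most 12 counts in a library.

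The clusters also hold other annotated genes, and most of these were not detected. Of 45 genes between the outermost Hox genes, 8 were detected and 27 had 0 counts in both libraries. The 27 include all 6 microRNA genes and all 16 genes annotated as miscellaneous RNA. The RNA had been selected to lie above 200 bases, and most of these genes are annotated as shorter than that. Their counts of 0 therefore do not show that they were silent. The highest was Gm53, a long non-coding RNA gene of the Hoxb cluster, with 33.2 TPM in replicate 2 and 34.1 TPM in replicate 1. In replicate 2 it stood below Hoxb6 and Hoxb8 alone among the Hoxb genes, and in replicate 1 below Hoxb8 alone. Hoxd3os1, antisense to Hoxd3, had 5.44 TPM in replicate 2 and 6.98 TPM in replicate 1. Hoxb3os had 3.93 TPM in replicate 2 and 2.38 TPM in replicate 1. Hoxa11os, antisense to the gene of lower uterus and cervix, had 4.51 TPM in replicate 2 and 3.68 TPM in replicate 1, below Hoxa11 itself in each. The libraries are stranded per the labels, but whether strand was used in counting was not given in the sources used here, so reads of an antisense gene and its partner may not be fully told apart.

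Hotairm1, a transcript of the Hoxa cluster known from myeloid cells, differed most between libraries among the 7 of these genes tested, with 58 counts in replicate 2 and 17 in replicate 1. Its level was 6.18 TPM in replicate 2 and 1.18 TPM in replicate 1, and its log2 ratio of 2.00 passed 2-fold. Hotair, the long non-coding RNA of the Hoxc cluster, had 3 counts in replicate 2 and 2 in replicate 1. Gm28230 in the Hoxd cluster and Gm28308 in the Hoxa cluster are annotated as protein-coding genes that overlap Hox genes, so their counts, and those of the Hox genes they overlap, are uncertain. Gm28230 had 5.0 TPM in replicate 2 and 7.46 TPM in replicate 1, and Gm28308 had 8.07 and 6.67 TPM in the same order.

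Outside the clusters, 11 of 13 measured neighbours were detected, and they did not share a level. Some of these genes lie on the same chromosome as a cluster but do not border it. Evx1, a homeobox gene at the 5′ end of the Hoxa cluster, had 3.0 TPM in replicate 2 and 2.36 TPM in replicate 1, next to Hoxa13, which was not detected. Evx2, its counterpart by the Hoxd cluster, had 0 counts in replicate 2 and 3 in replicate 1. Mtx2, a mitochondrial import gene on the other side of Hoxd, had 102 TPM in replicate 2 and 54.2 TPM in replicate 1, above Hoxd4 in replicate 2 and below it in replicate 1. Calcoco1, on the chromosome of the Hoxc cluster, had 57.4 TPM in replicate 2 and 65.6 TPM in replicate 1, and Smug1 on the same chromosome had 13.03 and 12.29 TPM in the same order. Of the neighbours 3 were higher in replicate 2 and 3 lower.

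**Figure D5:**
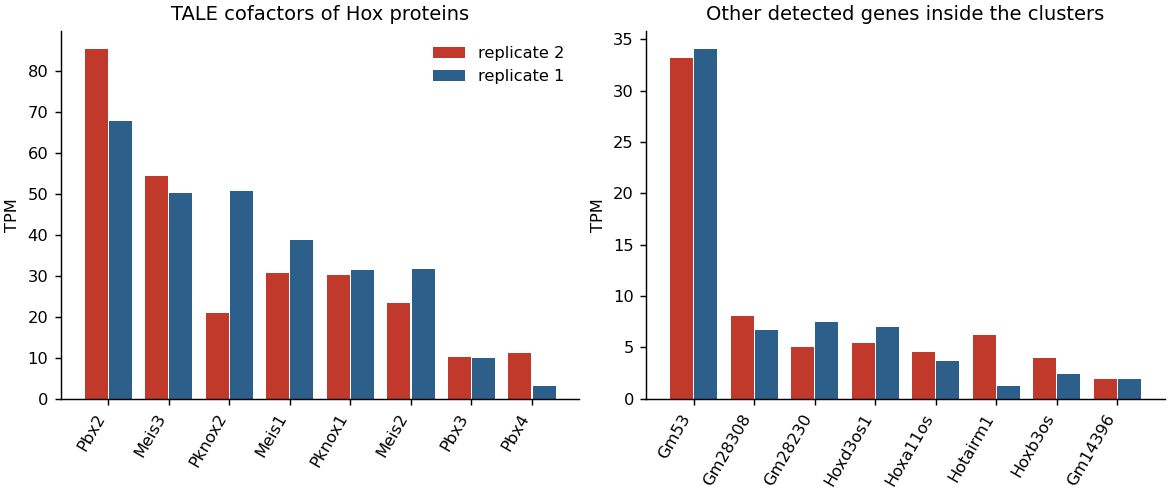
TPM on y axes from 0 of TALE cofactors (left) and of the 8 detected genes inside the clusters that are not Hox genes (right). Red bars are replicate 2 and blue bars replicate 1. Pbx2 leads the cofactors drawn, Gm53 leads the other genes at 33.2 and 34.1 TPM, and Hotairm1 and Pbx4 show the widest gaps between libraries relative to their level.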

How the data were processed

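Each library came with gene and transcript tables on mm10 (GENCODE M4, per the file headers and notes). The authors deposited expected counts, estimated read pairs that need not be whole, TPM, which divides them by effective length, and the percent of a gene's TPM that falls to each transcript. The aligner and quantifier were not given in the sources used here.

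Symbols and coordinates came from GENCODE M21 on the same build, which matched 42462 of 43346 identifiers. The 96 ERCC spike-ins stayed out of library sizes. Expected counts were rounded, a mean count of 20 was asked for, and TMM factors came from edgeR 4.0.16 (R 4.3.3), with a prior count of 1 in log2 ratios. The quasi-likelihood test has no residual degrees of freedom here, so a two-sided exact binomial test took its place. It was run on simulated Poisson counts, which hold counting error only and cannot show how it behaves under further spread between libraries. DESeq2 1.42.0 gave alternative size factors. Intervals, at 95%, and floors cover counting error only. Homeodomain identity was computed from translated GENCODE transcripts (Python 3.11.15).

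Hox genes could be named at any level. From the other lists (cofactors, neighbours, genes inside the clusters, chromatin regulators, receptors, tract genes), the 3 highest or all of up to 9 could be. Suz12, Ezh2, Eed, Ezh1, Lhx1, Pax8, Evx1, Evx2, Hoxd3os1, Hoxb3os, Hoxa11os, Hotairm1, Hotair and the cell markers were chosen after their values were seen. The members and lists were chosen with earlier results of these data known. Splice junctions and contigs on mm9 were not used. Some items are not reported here.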

Additional observations from a re-analysis of the deposited data

How the results depend on the processing

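Detection moved little: 23 to 30 of 39 Hox genes passed at a TPM of 0.5, 2 or 5, with posterior mean TPM, in either library alone, or at 10 expected counts. Their median TPM was 6.94, 7.01 without replicate 2 and 7.70 without replicate 1. In expected counts, the share of cluster B was 20.97% (25.8% by TPM), that of C 14.1% (12.7%) and that of D 43.3% (39.5%). Leaving out either library put D between 37.3% and 41.7%, B between 25.3% and 26.3%, A between 20.8% and 23.2% and C between 12.2% and 13.2%. Hoxd4 ranked highest by posterior mean TPM and in either library alone.

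Scaling by the spike-in total, which lowers all genes alike, turned 13 higher and 4 lower genes into 5 and 16, and the median log2 ratio of the Hox genes into -0.28, beside -0.44 over all genes. Under it 14 single ratios changed sign, with values of -0.24 for Hoxa2, -0.38 for Hoxa6, -0.0062 for Hoxa5, -0.32 for Hoxa9, -0.34 for Hoxa11, -0.38 for Hoxb3, -0.27 for Hoxb5, -0.053 for Hoxb7, -0.34 for Hoxb8, -0.37 for Hoxc4, -0.29 for Hoxc5, -0.055 for Hoxc6 and -0.21 for both Hoxd3 and Hoxd8. With Bonferroni adjustment 11 were higher and 0 lower, beside 17.5% and 12.4% of all genes (4 lower with Benjamini-Hochberg adjustment of the same exact binomial test, and 4 at an unadjusted p below 0.05). DESeq2 size factors gave 14 and 4, with Hoxa9 added. The library total gave 12 and 4, with Hoxb7 lost. Other filters and posterior mean counts left 13 and 4. No setting gave a Hox gene over 2-fold, but without a count filter, genes with at most 3 counts in each library were left out of that tally.

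No paired analysis was possible because there is 1 group. Depth limits the genes near 0 counts, and 2 libraries leave the spread between animals poorly known.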
